A study of Mus musculus with 8 samples.

Results

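The genes described here encode GATA4, its relatives GATA5 and GATA6, and factors that work with them in the heart. They are Gata4, Gata5, Gata6, Zfpm1, Zfpm2, Nkx2-5, Tbx5, Mef2c, Hand2 and Myocd. The members were found by gene symbol among the probe sets annotated with exactly 1 symbol. All 10 were measured, out of 19938 such genes, and each had 1 probe set, so no choice between probe sets arose.

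RNA was measured in hearts of mice 9 weeks old, on a C57Bl6 background, with 1 Affymetrix array per animal. The groups were homozygous S105A mutants given PE (arrays 7 and 8), untreated S105A mutants (arrays 5 and 6), wild-type (WT) mice given PE (arrays 3 and 4) and untreated WT mice (arrays 1 and 2). S105A is a serine-to-alanine substitution in GATA4, and how the allele was made is not given in the sources used here. PE, which the labels spell out as pseudoephedrine, was the adrenergic stress. Osmotic pumps released a daily dose of 100 mg per kg over 5 days. The controls are titled untreated, although the protocol names saline as the alternative to PE. Values are log2 expression, so a difference of 1 is a 2-fold difference, and precision is limited by the 2 arrays of each group.

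The heart muscle genes Actc1 and Tnnt2 lay between 14.02 and 14.12 and between 13.71 and 13.83 on the log2 scale over the 8 arrays. These values are near the top of the whole range of 2.63 to 14.45. Both belong to a list of 12 cardiomyocyte markers, of which Cmya5 lay lowest and varied most, between 9.59 and 11.34. The titles name whole hearts and the tissue field names the ventricle. Of 8 atrial markers, Sln, Bmp10 and Myl7 lay between 4.51 and 4.73, between 4.41 and 4.81 and between 5.53 and 6.02, while Dkk3 lay between 6.18 and 8.40 and Nr2f2 between 7.46 and 7.69. Myl4 lay between 8.02 and 8.92, Stard10 between 8.47 and 9.73 and Tbx5 between 7.87 and 8.96. These values do not settle how much atrial tissue the samples held. PE array 3 stood apart in both directions. It held the lowest value of 6 of the 10 members, and of 25.9% of all genes. It also held the highest value of 2 members, and of 23.4% of all genes. The mean of 10 macrophage markers was 9.62 on array 3 and 9.23 on array 7, 8.78 on array 4 and 8.55 on array 8, and 7.97 to 8.35 on the untreated arrays. The mean of 12 cardiomyocyte markers was 12.76 on array 3 and 13.02 to 13.16 on the other arrays. In RNA from whole tissue, fewer cells of a type and less RNA per cell cannot be told apart.

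GATA factors are zinc-finger proteins that bind a short DNA motif, and in heart muscle GATA4 activates genes of contraction, of the natriuretic peptides and of growth. The serine replaced in S105A is a site at which ERK kinases phosphorylate GATA4 after adrenergic stimulation. FOG proteins, encoded by Zfpm1 and Zfpm2, attach to the GATA zinc finger and modulate or repress its activity, while NKX2-5, TBX5, MEF2C and HAND2 bind DNA beside GATA4 and activate targets with it. Myocardin, encoded by Myocd, is a coactivator of serum response factor in cardiac and smooth muscle.

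The motif is shown in 3 promoter windows chosen because they hold it: those of the natriuretic peptide genes Nppa and Nppb, which are reported GATA4 targets, and that of Hand2, one of the members with the widest spread over the arrays. Each is the 250 bases before a RefSeq start site of mouse assembly GRCm38.p6, 5′ to 3′ on the gene's strand, with the motif in capitals. The forms searched on both strands were AGATAA and its variant AGATAG, as well as TGATAA and its variant TGATAG, and no match overlapped another in these windows. Nppa lies on the plus strand at chr4:148000472-148000721, Nppb on the plus strand at chr4:147985650-147985899 and Hand2 on the plus strand at chr8:57320733-57320982.
Nppa: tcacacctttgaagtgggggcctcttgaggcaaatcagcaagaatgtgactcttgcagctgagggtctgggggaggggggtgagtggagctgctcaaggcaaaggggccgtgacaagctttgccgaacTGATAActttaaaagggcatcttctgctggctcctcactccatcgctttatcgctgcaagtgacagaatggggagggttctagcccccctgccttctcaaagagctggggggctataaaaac
Nppb: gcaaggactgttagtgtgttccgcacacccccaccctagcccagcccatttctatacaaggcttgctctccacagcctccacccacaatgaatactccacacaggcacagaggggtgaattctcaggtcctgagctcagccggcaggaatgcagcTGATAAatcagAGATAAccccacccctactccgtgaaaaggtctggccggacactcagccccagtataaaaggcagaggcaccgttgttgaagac
Hand2: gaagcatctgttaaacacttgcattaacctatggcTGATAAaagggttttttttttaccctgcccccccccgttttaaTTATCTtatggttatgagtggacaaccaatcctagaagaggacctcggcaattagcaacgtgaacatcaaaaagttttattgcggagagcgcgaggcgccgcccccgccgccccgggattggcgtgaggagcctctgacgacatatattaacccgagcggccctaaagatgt
Nppa held 1 match, 122 to 117 bases before the start site, and Nppb held a pair, 95 to 90 and 84 to 79 bases before it. Hand2 held 1 match 215 to 210 bases before the start site and 1 on the opposite strand 172 to 167 bases before it. At least 1 match was present in 26.5% of all 32851 windows of the table and at least 2 in 6.4%. The table had 5 members (Gata5, Zfpm1, Nkx2-5, Mef2c and Hand2) with 7 windows, and the Hand2 window was the 1 with a match. The target Myh7 had 2 windows with 0 matches, and Myh6 had 1 window with 1 match. A match is a run of letters and does not show that a factor binds there.

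The main question was whether PE or the S105A substitution went with different mRNA levels of these factors. By limma, 0 of the 10 members passed an adjusted p of 0.05 in any of 7 comparisons. These were PE minus untreated in S105A, in WT and on average, S105A minus WT with PE, without it and on average, and how far the PE effect differed between genotypes. Among all genes, 0.00502% passed for PE in WT, for PE averaged over genotypes and for genotype averaged over treatments, and 0.00% in the other 4 comparisons. At an unadjusted p under 0.05 there were 2 members for PE in WT (Hand2 and Myocd, with 11.7% of all genes), 1 for PE in S105A (Mef2c, with 5.86% of all genes) and 0 in the other 5 comparisons. Those 5 had 2.42% of all genes for the difference in PE effect, 4.96% for genotype without PE, 2.68% for genotype with PE, 16.7% for averaged PE and 4.99% for averaged genotype. In none of the members did the 4 PE arrays and the 4 untreated arrays separate, as they did in 12.9% of all genes. The median difference of the members with PE, averaged over the genotypes, was -0.03, and that of all genes was -0.02.

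The 95% intervals give the size of difference that these arrays could still hide. The spread of a gene was estimated once over all 4 groups, so an interval need not match the spread of the groups compared. For Tbx5 the SD was 0.66 in WT PE hearts, 0.00 in S105A PE hearts and 0.12 in untreated S105A hearts. Its PE difference nevertheless had an SE of 0.27 in both genotypes. For PE averaged over the genotypes, the interval lay within 2-fold either way for 10 of 10 members and for 94.7% of all genes. For PE in S105A it did so for 10 members (93.3% of all genes) and for PE in WT for 8, the exceptions being Tbx5 and Hand2 (90.6% of all genes). For S105A minus WT it did so for 9 members with PE, Tbx5 being the exception (94.7% of all genes), and for 10 both without PE (96.1% of all genes) and averaged over treatments (98.1% of all genes). For the difference in PE effect between genotypes it did so for 7, the exceptions being Tbx5, Hand2 and Myocd (89.9% of all genes).

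**Figure D1:**
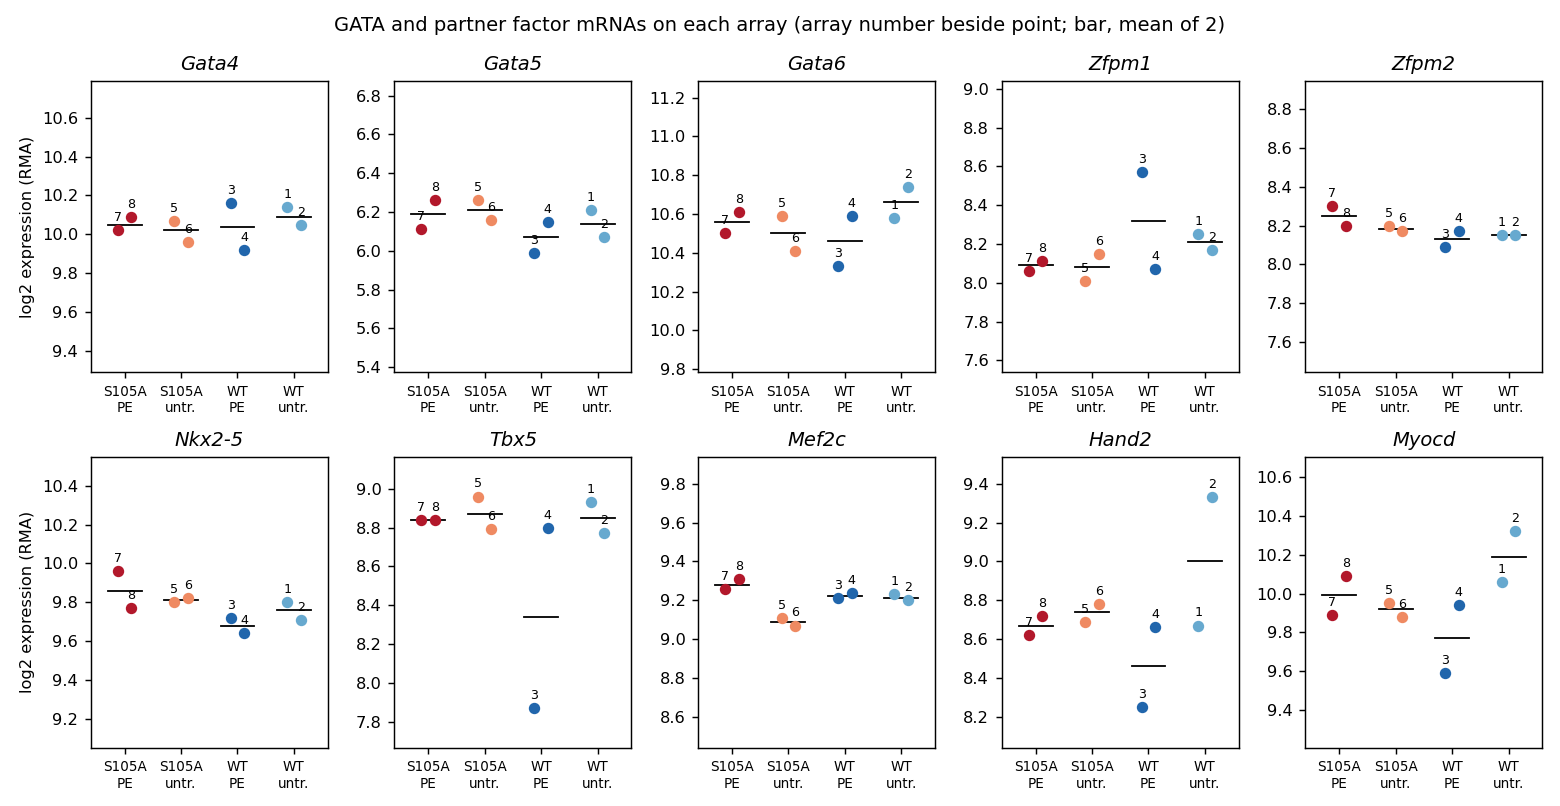
Log2 expression of the 10 genes on each array (y axis, the same span of 1.5 log2 units in every panel) by group (x axis), with the array number beside each point and a bar at the mean of the 2 arrays. Tbx5 is low on array 3 alone and Hand2 is high on array 2, while Gata4, Zfpm2 and Mef2c span at most 0.24 log2 units over the 8 arrays.

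Gata4 encodes the factor that carries the substitution. Its log2 value was 10.02 and 10.09 in S105A PE hearts, 10.07 and 9.96 in untreated S105A hearts, 10.16 and 9.92 in WT PE hearts, and 10.14 and 10.05 in untreated WT hearts. All 4 groups overlapped, and array 3 and array 4, both WT PE, held the highest and the lowest value. The difference with PE averaged over genotypes was -0.01 (SE 0.07, 95% interval -0.18 to 0.17, limma adjusted p = 0.977). Averaged over treatments, S105A minus WT was -0.03 (SE 0.07, 95% interval -0.21 to 0.15, limma adjusted p = 0.960). The probe set reads the abundance of the mRNA and shows neither the substitution nor the phosphorylation of the protein, so it does not check the genotype labels.

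Gata6 encodes a close relative that shares cardiac targets with GATA4. It stood at 10.50 and 10.61 in S105A PE hearts, 10.59 and 10.41 in untreated S105A hearts, 10.33 and 10.59 in WT PE hearts, and 10.58 and 10.74 in untreated WT hearts. The lowest value was that of array 3 and the highest that of array 2, and the PE and untreated arrays overlapped in both genotypes. PE minus untreated was 0.06 in S105A (95% interval -0.23 to 0.35) and -0.20 in WT (95% interval -0.49 to 0.09, limma adjusted p = 0.492). The WT value was -0.07 without array 3 and -0.33 without array 4 (limma adjusted p = 0.129).

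Gata5, a family member best known from the endocardium, lay close to the array medians of 6.177 to 6.23. It was 6.11 and 6.26 in S105A PE hearts, 6.26 and 6.16 in untreated S105A hearts, 5.99 and 6.15 in WT PE hearts, and 6.21 and 6.07 in untreated WT hearts. The PE and untreated arrays overlapped in both genotypes, and so did the S105A and WT arrays with PE and without it. PE minus untreated was -0.05 averaged over genotypes (95% interval -0.22 to 0.13, limma adjusted p = 0.756), and the gene fell outside the test when the 40% of genes with the lowest mean were left out.

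The FOG genes come next. Zfpm2 encodes FOG-2, the FOG protein of heart muscle. It was 8.30 and 8.20 in S105A PE hearts, 8.20 and 8.17 in untreated S105A hearts, 8.09 and 8.17 in WT PE hearts, and 8.15 and 8.15 in untreated WT hearts. It was the 1 member in which the 4 S105A arrays and the 4 WT arrays did not overlap, with S105A higher. Of all genes, 1.50% separated in that direction and 3.12% in either direction. The separation was narrow, since the lowest S105A array and the highest WT array were both at 8.17 to 2 decimals. S105A minus WT averaged over treatments was 0.08 (SE 0.06, 95% interval -0.05 to 0.21, limma adjusted p = 0.927).

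Zfpm1 encodes FOG-1, known from blood cell development as the partner of GATA1. It was 8.06 and 8.11 in S105A PE hearts, 8.01 and 8.15 in untreated S105A hearts, 8.57 and 8.07 in WT PE hearts, and 8.25 and 8.17 in untreated WT hearts. Array 3 was 0.32 above the next array, and the other 7 arrays lay between 8.01 and 8.25. PE minus untreated in WT was 0.11 (SE 0.16, 95% interval -0.27 to 0.49, limma adjusted p = 0.789), and -0.14 without arrays 3 and 7. It was 0.36 without array 4 (limma adjusted p = 0.0661). In untreated hearts S105A minus WT was -0.13 (95% interval -0.51 to 0.25), and the S105A arrays lay below the WT arrays, as in 22.7% of all genes. Array 3 also had the highest mean of the 10 macrophage markers, and their part in its Zfpm1 value was not tested.

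Nkx2-5 is the homeobox factor that binds cardiac promoters together with GATA4. It was 9.96 and 9.77 in S105A PE hearts, 9.80 and 9.82 in untreated S105A hearts, 9.72 and 9.64 in WT PE hearts, and 9.80 and 9.71 in untreated WT hearts. Under PE both S105A arrays lay above both WT arrays, as in 10.5% of all genes. That difference was 0.19 (SE 0.09, 95% interval -0.04 to 0.41, limma adjusted p = 0.989). It was 0.09 without array 7, which had the highest value. Averaged over genotypes, PE minus untreated was -0.01 (95% interval -0.17 to 0.15, limma adjusted p = 0.942).

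Tbx5, a T-box factor of the atria, conduction system and left ventricle, had the widest spread together with Hand2, at 1.08 log2 units over the arrays. It was 8.84 on both arrays of S105A PE hearts, 8.96 and 8.79 in untreated S105A hearts, 7.87 and 8.80 in WT PE hearts, and 8.93 and 8.77 in untreated WT hearts. The value of array 3 was 0.89 below the next array, and the other 7 lay between 8.77 and 8.96. PE minus untreated was -0.03 in S105A (95% interval -0.67 to 0.61) and -0.51 in WT (SE 0.27, 95% interval -1.15 to 0.13, limma adjusted p = 0.444). The WT value was -0.05 without array 3. It was -0.97 without array 4 (limma adjusted p = 0.00698), where array 3 is the lone WT PE array, assumed to vary like the other groups, and 17.8% of all genes passed. Tbx5 also passed there in 3 further comparisons: 0.97 for S105A minus WT under PE (limma adjusted p = 0.0192, with 3.57% of all genes), -0.50 for averaged PE (limma adjusted p = 0.00794, with 20.7% of all genes) and 0.50 for averaged genotype (limma adjusted p = 0.0410, with 1.13% of all genes). With all arrays, S105A minus WT under PE was 0.50 (SE 0.27, 95% interval -0.14 to 1.15, limma adjusted p = 0.989), and 0.04 without arrays 3 and 7.

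Mef2c, a MADS-box factor of muscle, varied the least between the arrays of a group, with an SD of 0.02 to 0.04. It was 9.26 and 9.31 in S105A PE hearts, 9.11 and 9.07 in untreated S105A hearts, 9.21 and 9.24 in WT PE hearts, and 9.23 and 9.20 in untreated WT hearts. In S105A the PE arrays were both higher than the untreated arrays, as in 20.2% of all genes, whereas in WT they overlapped. PE minus untreated was 0.19 in S105A (SE 0.07, 1.14-fold, 95% interval 0.02 to 0.37, limma adjusted p = 0.765) and 0.01 in WT (SE 0.07, 95% interval -0.17 to 0.19, limma adjusted p = 0.964). The test of the difference between these effects gave 0.18 (SE 0.11, 95% interval -0.07 to 0.43, limma adjusted p = 1.00). The lowest group was S105A untreated, which lay below each of the other groups on both arrays. Against untreated WT alone, S105A was lower without overlap in 22.7% of all genes. The share of all genes with a group below every other was not computed.

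Hand2 is a basic helix-loop-helix factor of the ventricles. It was 8.62 and 8.72 in S105A PE hearts, 8.69 and 8.78 in untreated S105A hearts, 8.25 and 8.66 in WT PE hearts, and 8.67 and 9.33 in untreated WT hearts. Array 2 was 0.55 above the next array and array 3 was 0.37 below the next, so that both extremes came from WT. PE minus untreated was -0.07 in S105A (95% interval -0.60 to 0.47) and -0.54 in WT (SE 0.23, 95% interval -1.08 to -0.01, unadjusted p = 0.0482 by limma, limma adjusted p = 0.419). The WT groups did not overlap, as in 23.5% of all genes in this direction, but array 4 was only 0.01 below array 1. The WT value was -0.22 without array 2 and -0.87 without array 1. In untreated hearts S105A minus WT was -0.26 (95% interval -0.80 to 0.27, limma adjusted p = 0.998), and 0.06 without array 2.

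Hand2 had the largest averaged PE difference of the 10, at -0.31 (SE 0.16, 95% interval -0.69 to 0.08, limma adjusted p = 0.355). The 5 genes whose values, centred on their own mean, lay nearest to those of Hand2 over the 8 arrays were Olfr1372-ps1, Sars2, 4631405J19Rik, Rab30 and Rasl2-9. Their root mean square difference from Hand2 was 0.085 to 0.109 log2 units. Sars2, for example, was 7.31 and 7.56 in S105A PE hearts, 7.59 and 7.62 in untreated S105A hearts, 6.90 and 7.42 in WT PE hearts, and 7.54 and 7.93 in untreated WT hearts. All 5 were highest on array 2 and lowest on array 3, as Hand2 was. They were chosen for nearness to Hand2 on these same arrays, so the shared extremes are no separate result. On every array Olfr1372-ps1, 4631405J19Rik and Rasl2-9 lay below the array medians of 6.177 to 6.23.

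Myocd was 9.89 and 10.09 in S105A PE hearts, 9.95 and 9.88 in untreated S105A hearts, 9.59 and 9.94 in WT PE hearts, and 10.06 and 10.32 in untreated WT hearts. As with Hand2, the WT extremes were arrays 2 and 3. PE minus untreated was 0.07 in S105A (95% interval -0.28 to 0.43, limma adjusted p = 0.898) and -0.43 in WT (SE 0.15, 0.744-fold, 95% interval -0.78 to -0.07, unadjusted p = 0.0253 by limma, limma adjusted p = 0.419). The difference between these effects was 0.50 (SE 0.21, limma unadjusted p = 0.0504, limma adjusted p = 1.00), the largest of the 10. The WT value was -0.25 without array 3, and -0.60 without array 4, where array 3 is the lone WT PE array.

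**Figure D2:**
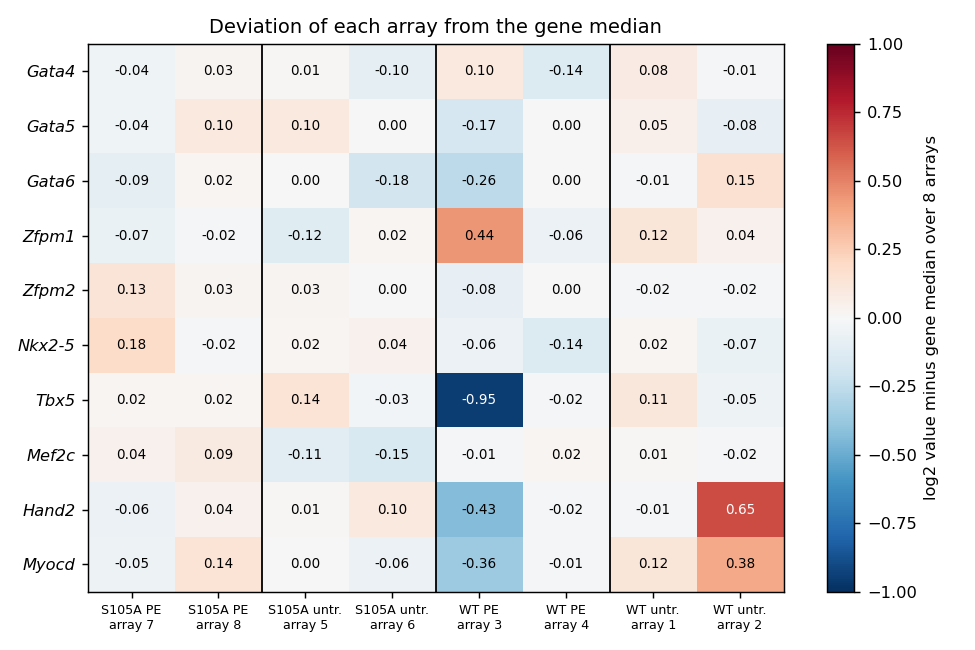
Log2 value of each gene (rows) on each array (columns, by group) minus the gene's median over the 8 arrays, as colour and number. WT PE array 3 holds the largest deviations below the median, in Tbx5, Hand2, Myocd and Gata6, and the largest above it in Zfpm1, while untreated WT array 2 holds those above it in Hand2 and Myocd.

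Over the 10 members, the 2 arrays of a group differed most in the WT groups, an order that the whole table did not share. The median size of the difference between arrays 7 and 8 (S105A PE) was 0.10 over the members and 0.13 over all genes. It was 0.09 over both for arrays 5 and 6 (S105A untreated). Between arrays 3 and 4 (WT PE) it was 0.25 over the members and 0.16 over all genes, and -0.93 for Tbx5 (array 3 minus array 4). Between arrays 1 and 2 (WT untreated) it was 0.12 over the members and 0.09 over all genes, and -0.66 for Hand2 (array 1 minus array 2). The median range over the 8 arrays was 0.36 for the members and 0.37 for all genes.

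The difference in the PE effect between genotypes was above 0 for 9 of 10 members, Zfpm1 being the exception, and for 47.5% of all genes. The median was 0.16 for the members and -0.01 for all genes. S105A minus WT under PE was likewise above 0 for 9 members, again all but Zfpm1, and for 46.9% of all genes. Both counts use the same PE arrays, so the second is no separate result. The members share these arrays too and are not replicates of each other. WT PE array 3 held the lowest value of 6 members and the highest value of Zfpm1. In untreated hearts 4 members did not overlap between genotypes, as in 44.5% of all genes in either direction. Zfpm1, Mef2c and Myocd were lower in S105A and Zfpm2 was higher (22.7% and 21.8% of all genes). Under PE the members without overlap were Zfpm2, Nkx2-5, Tbx5 and Mef2c. All were higher in S105A (10.5% of all genes, and 23.6% in either direction). For the difference in PE effect, Tbx5 and Hand2 each had a value of 0.48 (95% intervals -0.43 to 1.39 and -0.28 to 1.24), and Gata6 had 0.26 (95% interval -0.15 to 0.67). By limma 0 members passed at an adjusted p of 0.05, and 0 were at an unadjusted p under 0.05 (2.42% of all genes were). Without arrays 3 and 7, Tbx5 had a difference of 0.01, Zfpm1 one of 0.17 and Gata4 one of 0.24.

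**Figure D3:**
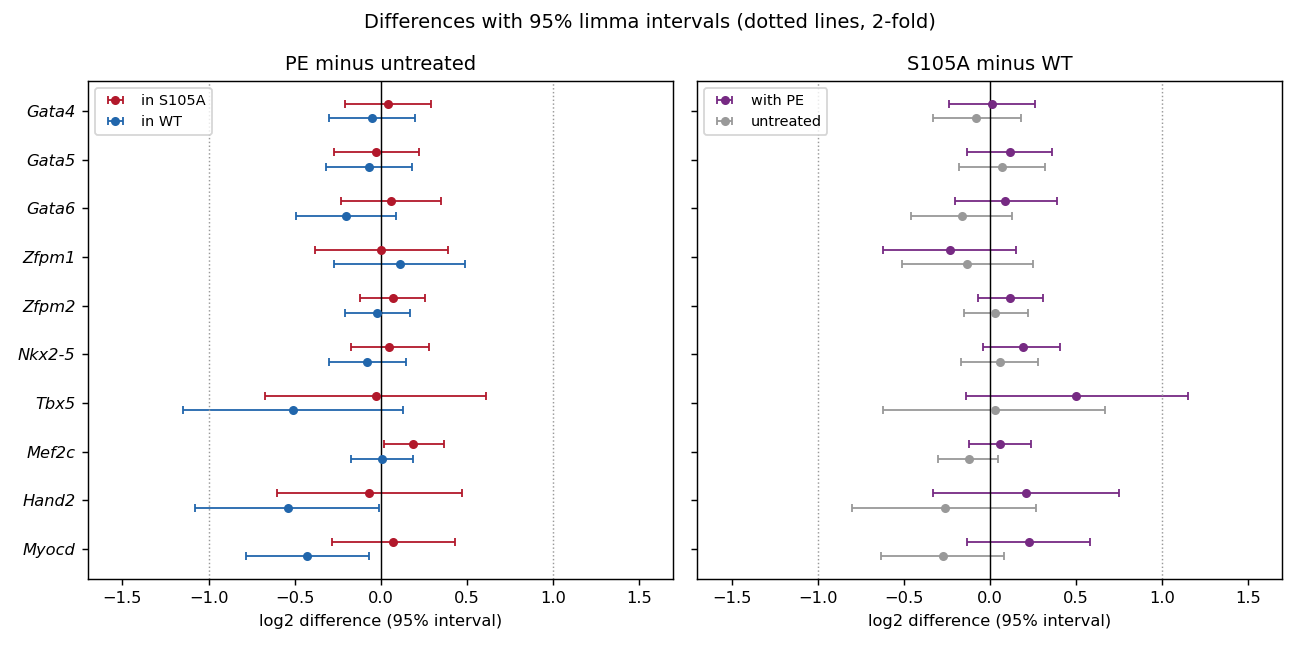
Log2 difference (x axis) with its 95% limma interval for each gene (y axis), as PE minus untreated in S105A and in WT (left) and as S105A minus WT with PE and untreated (right); dotted lines mark 2-fold. Only Mef2c in S105A and Hand2 and Myocd in WT have a PE interval that leaves out 0, and Tbx5 and Hand2 in WT and Tbx5 under PE have intervals that reach past 2-fold.

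Reported GATA4 target genes were set beside the factors. Myh7, the beta myosin heavy chain of hypertrophy, was 10.71 and 10.48 in S105A PE hearts, 8.75 and 8.63 in untreated S105A hearts, 11.33 and 10.89 in WT PE hearts, and 8.29 and 8.52 in untreated WT hearts. Every PE array was higher than every untreated array, as in 6.70% of all genes. Averaged over genotypes Myh7 rose by 2.30 (SE 0.12, 4.94-fold, limma adjusted p = 0.00808). It missed the threshold when array 1, 2, 5, 6 or 7 was left out (limma adjusted p = 0.144, 0.110, 0.0854, 0.197 and 0.0576).

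Nppa, the atrial natriuretic peptide gene, was 13.76 and 13.08 in S105A PE hearts, 10.73 and 10.92 in untreated S105A hearts, 13.95 and 12.92 in WT PE hearts, and 11.11 and 11.84 in untreated WT hearts. Its averaged difference was 2.28 (95% interval 1.61 to 2.95, limma adjusted p = 0.234), and that of Nppb was 0.93 (95% interval 0.33 to 1.52, limma adjusted p = 0.275). Neither passed with all arrays, though the PE arrays lay above the untreated arrays for Nppa, as in 6.70% of all genes. Myh6, the adult alpha myosin heavy chain, had -0.16 (95% interval -0.41 to 0.08) and the calcium pump gene Atp2a2 had -0.16 (95% interval -0.40 to 0.07). Of 19 reported targets measured, 1 passed over all genes by limma, 6 were higher and 1 lower at an unadjusted p under 0.05, 11 were above 0 and 8 below, and their median was 0.03. Of all genes, 9.31% were higher and 7.44% lower at that p, and 44.0% were above 0. The interval of the Gata4 difference, -0.18 to 0.17, did not reach that of Myh7, 2.02 to 2.59, or that of Nppa.

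**Figure D4:**
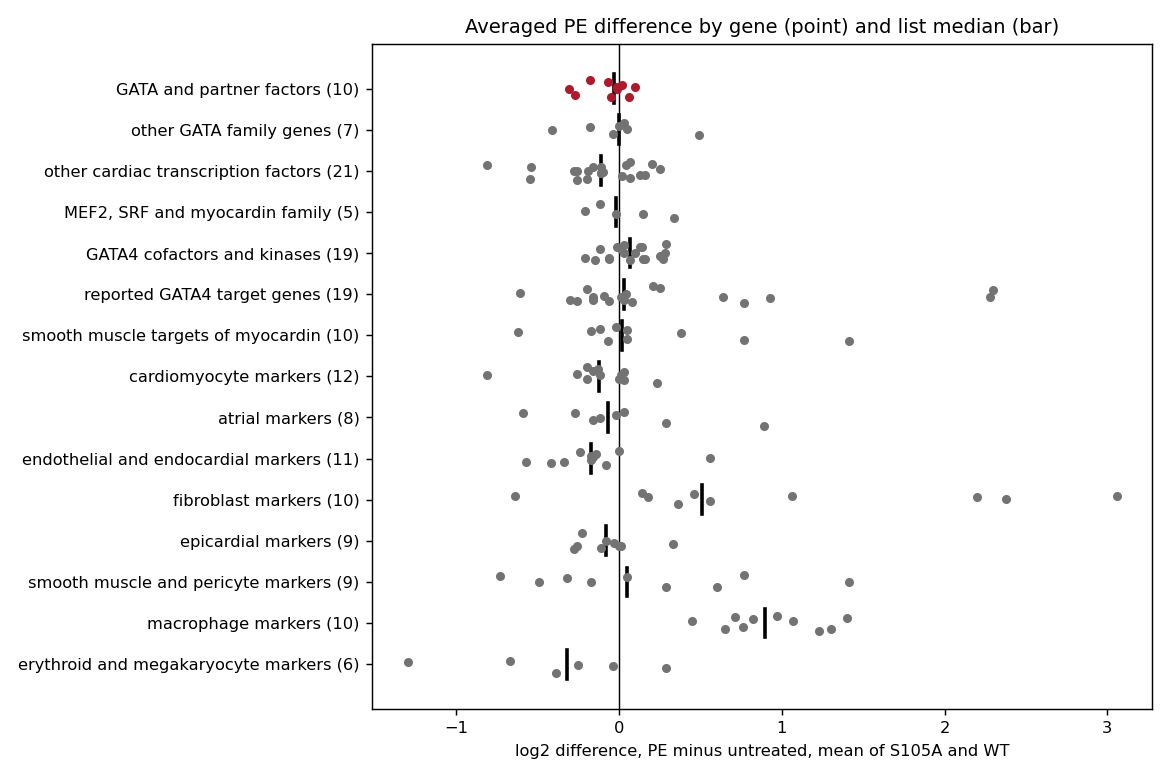
Averaged log2 difference, PE minus untreated (x axis), for each gene (points) of the GATA and partner factors and of 14 other lists (y axis, measured genes in brackets), with a bar at each list's median. The 10 factors lie between -0.31 and 0.10, whereas single reported targets reach 2.30 and the macrophage list has a median of 0.90.

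Another list held genes with a GATA-type zinc finger, of which not all encode GATA factors. Of 7 measured, 3 were above 0 and 4 below with PE averaged over genotypes, and 0 passed over all genes by limma (2 were at an unadjusted p under 0.05, beside 16.7% of all genes). Gata2, an endothelial and blood GATA factor, had -0.41 (95% interval -0.74 to -0.07, limma adjusted p = 0.283). Trps1, an atypical GATA-type repressor, had 0.49 (95% interval 0.06 to 0.91, limma adjusted p = 0.285), Gata3 had -0.18 and Gata1 had -0.04. On the same arrays the mean of 11 endothelial and endocardial markers was 9.45 and 9.62 in S105A PE hearts, 9.54 and 9.61 in untreated S105A hearts, 9.40 and 9.58 in WT PE hearts, and 9.78 and 9.74 in untreated WT hearts. The part of endothelial cells in the Gata2 value was not tested.

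Other transcription factors of heart development were measured for 21 of 22 genes listed, of which 13 were below 0 and 8 above with PE averaged over genotypes. By limma 0 passed over all genes, and 4 were lower at an unadjusted p under 0.05 (7.44% of all genes were). Hey1, a Notch target that represses transcription, had -0.55 (95% interval -0.86 to -0.24, limma adjusted p = 0.275), and Tbx3, a T-box repressor of the conduction system, had -0.54 (95% interval -0.93 to -0.16, limma adjusted p = 0.277). Hey1 was at -0.55 in S105A and also at -0.55 in WT, and Tbx3 was at -0.33 in S105A and -0.75 in WT. Irx1, an Iroquois homeobox gene, had -0.26 and the muscle methyltransferase gene Smyd1 had -0.28.

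A list of the relatives of MEF2C and of myocardin, with serum response factor, gave 5 measured genes of 6. By limma 0 passed over all genes in any comparison, while 1, Mrtfb, was at an unadjusted p under 0.05 for averaged PE. Mef2a had -0.21 with PE averaged over genotypes (95% interval -0.42 to 0.01), Mef2d had -0.12, and the myocardin-related coactivator genes Mrtfa and Mrtfb had 0.34 and 0.15. Of 10 smooth muscle genes that myocardin activates, 5 were above 0 and 5 below, with a median of 0.01. Cnn1 had 1.41 (95% interval 0.04 to 2.79, limma adjusted p = 0.296), Tagln had 0.77, Des had 0.38 and Synpo2 had -0.62, and 0 passed over all genes by limma, while 4 were at an unadjusted p under 0.05, beside 16.7% of all genes at that p and 44.0% above 0.

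Cofactors of GATA4 and kinases that act on it were measured for 19 of 23 genes. With PE averaged over genotypes, 13 were above 0 and 6 below, with a median of 0.07, and by limma 0 passed over all genes, while 4 were at an unadjusted p under 0.05. Of all genes, 44.0% were above 0 and 16.7% were at that p. Stat3, a cytokine-activated factor, had 0.27 (95% interval 0.07 to 0.48), the calcineurin-responsive factor gene Nfatc2 had 0.25 (95% interval 0.05 to 0.46) and the protein kinase C gene Prkca had 0.29 (95% interval 0.02 to 0.56). The stress kinase gene Mapk14 had -0.21 (95% interval -0.41 to -0.01). In untreated hearts 15 of the 19 were below 0 in S105A minus WT, with a median of -0.12, and 49.1% of all genes were below 0. By limma 0 passed over all genes or were at an unadjusted p under 0.05 (4.96% of all genes were).

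Markers of other cell types are given beside the shares of all genes for averaged PE, which were 44.0% above 0 and 16.7% at an unadjusted p under 0.05. All 10 macrophage markers were above 0 with PE averaged over genotypes and at an unadjusted p under 0.05, with a median of 0.90, and of 10 fibroblast markers 9 were above 0 and 7 at an unadjusted p under 0.05, with a median of 0.51. Of 6 measured erythroid and megakaryocyte markers 5 were below 0 and 4 at an unadjusted p under 0.05, with a median of -0.32. Medians were -0.13 for 12 cardiomyocyte markers, -0.17 for 11 endothelial and endocardial markers, -0.08 for 9 epicardial markers, 0.05 for 9 smooth muscle and pericyte markers and -0.07 for 8 atrial markers, a list that includes Tbx5. By limma 0 genes of these lists passed over all genes, while each of the last 5 lists had 2 to 4 genes at an unadjusted p under 0.05. Their part in the members' values was not tested.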

How the data were processed

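The deposited log2 values were made by the authors with RMA. This follows from the submitters' processing notes, and per the labels no version or genome build is stated. RMA subtracts background, equalises the arrays' distributions and summarises probes, so a shift shared by most genes is removed. That the scale is log2 follows from the range of the values, and array medians lay between 6.177 and 6.23.

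Of 35557 rows, 21789 had 1 gene symbol, 1621 several and 12147 none. Symbols were updated by Entrez identifier (19855 of 19938 genes matched GRCm38.p6). Where a gene had several probe sets (999 genes), the brightest on average was used.

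Group means were fitted over 19938 genes and 8 arrays with limma 3.58.1 in R 4.3.3 (4 residual degrees of freedom, prior 2.74, prior SD 0.111). P values are two-sided, adjusted by Benjamini-Hochberg over all genes within each of 7 contrasts, with a threshold of 0.05, and intervals are 95% moderated intervals. By the titles, each array is a different animal.

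The members and the 14 lists (166 entries) were chosen with earlier results of these data known. Genes named are all members, up to 4 per list by the smallest unadjusted p in the averaged PE effect, 5 target genes, and the 5 genes nearest to the member with the largest averaged PE difference; Actc1, Tnnt2 and the 8 atrial markers check the tissue. The fit was tested on simulated data. Promoter sequences are RefSeq's. Figures were drawn with matplotlib 3.10.9.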

Additional observations from a re-analysis of the deposited data

Results flagged for a closer look

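Mef2c was singled out because S105A and WT lay in opposite order without and with PE. With PE, it was 9.26 and 9.31 in S105A and 9.21 and 9.24 in WT. In untreated hearts it was 9.11 and 9.07 in S105A and 9.23 and 9.20 in WT. The difference between the 2 genotype effects was 0.18 (SE 0.11), which did not pass the test of that difference (limma adjusted p = 1.00). In Mef2c the genotypes did not overlap in either condition. A change in the sign of the mean difference alone was not particular to Mef2c. S105A minus WT also changed sign from untreated to PE in Myocd (-0.27 and 0.23) and Hand2 (-0.26 and 0.21). It did so in Gata6 (-0.16 and 0.09) and Gata4 (-0.08 and 0.01) as well. The share of all genes with such a change was not computed. In Myocd, Hand2, Gata6 and Gata4 the genotypes overlapped with PE, and in all but Myocd also without it. Groups of 2 arrays are too small for a test of single outlying arrays.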

How the results depend on the processing

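The count of members past an adjusted p of 0.05 was 0 in all 7 comparisons under every setting except without array 4. With single arrays left out, the counts were 0 to 2 members for PE in WT, 0 to 1 for the genotype effect with PE, for averaged PE and for averaged genotype, and 0 in the other 3 comparisons. The calls without array 4 were Tbx5 in all 4 (averaged PE -0.50, averaged genotype 0.50, genotype with PE 0.97) and Myocd in WT. There 17.8%, 3.57%, 20.7% and 1.13% of all genes passed for PE in WT, genotype with PE, averaged PE and averaged genotype. Without array 3, which removes the same pair from the spread, 4, 4, 5 and 14 genes passed in these comparisons, against 3541, 711, 4137 and 225 without array 4.

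At an unadjusted p under 0.05, leaving out 1 array gave 0 to 5 members for PE in WT (0 without array 2 or 3, 5 without array 4), 0 to 1 for PE in S105A, 0 to 4 for the difference in PE effect, 0 to 1 for genotype without PE, 0 to 3 for genotype with PE, 0 to 4 for averaged PE and 0 to 2 for averaged genotype. The WT count of 2 was 1 without the 40% of genes with the lowest mean, with all rows, with a further quantile normalization or with array weights, and 0 with only the arrays compared or without arrays 3 and 7. The S105A count of 1 was 0 with a further quantile normalization, with a trended and robust variance or with only the arrays compared. Where the count was 0, it was 1 with array weights for the difference in PE effect, and 1 for genotype without PE with array weights, with only the arrays compared or without arrays 3 and 7. The causes were not tested.

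Of 70 member differences, 31 took the other sign under at least 1 alternative (65 of 1103 alternative values). No paired analysis was possible because the titles number the animals 1 to 8 and no number is shared between groups. No member had another probe set to try. No signal over background was used, so how far it limits the members is not known.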
